A study of Mus musculus with 6 samples.

Results

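Collagen genes outside type IV were measured in whole-kidney RNA of 6 mice, 3 wild type and 3 homozygous for a mutation, on 1 single-colour CodeLink oligonucleotide array per animal. The titles abbreviate the mutant arrays as KO, and the sources used here name neither the mutated gene nor the strain, age or sex. Kidney tissue had been frozen after the vessels were flushed with saline, and poly(A) RNA of the bulk tissue was profiled. The members were all genes whose symbol has the form Col, a type number, a and a chain number, without the Col4a genes, as read from probes annotated with a single symbol. This gave 35 genes on 46 probes, out of 18048 genes on 21590 such probes. Where a gene had several probes, the brightest on average stood for it. The 35 genes comprised 11 of fibrillar collagens, 7 of fibril-associated collagens with interrupted helices (FACIT), 6 of type VI and 11 of other classes. Col9a2, Col12a1 and Col28a1, which also carry such names in the RefSeq table, were not analysed here.

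Collagens are secreted proteins whose chains wind around each other into a helix of repeated glycine-containing triplets. Fibrillar collagens assemble into the banded fibres that bear tension, FACIT collagens sit on the surface of those fibres, type VI forms beaded microfilaments around cells, and other types form networks, anchor basement membranes or span the plasma membrane. In kidney the interstitial fibroblasts and pericytes are the best known source of types I, III and VI, and their accumulation is a hallmark of fibrosis. In the mouse genome most chains lie apart, but some are direct neighbours among protein-coding genes: Col3a1 with Col5a2 on chromosome 1, Col6a1 with Col6a2 on chromosome 10, Col6a4 with Col6a5 and Col6a5 with Col6a6 on chromosome 9, and Col9a1 with Col19a1 on chromosome 1.

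In mutant kidney 13 collagen genes had higher transcript levels and 0 had lower ones, of 31 tested and 35 measured. They were the chains of types I, III, V and VI that make up the interstitial matrix (Col1a1, Col1a2, Col3a1, Col5a1, Col5a2, Col5a3, Col6a1, Col6a2, Col6a3), the fibril-surface collagen Col14a1, the basement membrane collagens Col15a1 and Col18a1, and the transmembrane collagen Col13a1. Their differences ran from 1.09 to 2.40 log2 units, with Col6a1 at the top. The test was limma across all 25834 probes tested, with Benjamini-Hochberg adjustment and a threshold of 0.05, and each difference is the mutant mean less the wild-type mean, ± its fitted SE. Of all 14817 genes tested, 5.67% were higher and 1.59% were lower. Over all probes 1063 were higher and 329 lower, a split that became 880 and 551 with quantile normalization and 938 and 554 with cyclic loess, under both of which the 13 collagen genes still passed. The median difference of the 31 collagen genes tested was 1.09, and that of all genes tested was 0.08. The members' median was 0.69 over all 35 when no dim probe was filtered out, 0.74 over 33 with no floor and 0.77 with a pseudocount of 0.5. At an unadjusted limma p under 0.05, 15 of the 31 were higher and 0 were lower, against 14.6% and 6.29% of all genes tested. limma lets the variance it borrows between genes depend on intensity; without that trend 6 collagen genes passed, namely Col1a1, Col3a1, Col5a3, Col6a1, Col6a2 and Col8a2, the last of which is not among the 13.

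**Figure D1:**
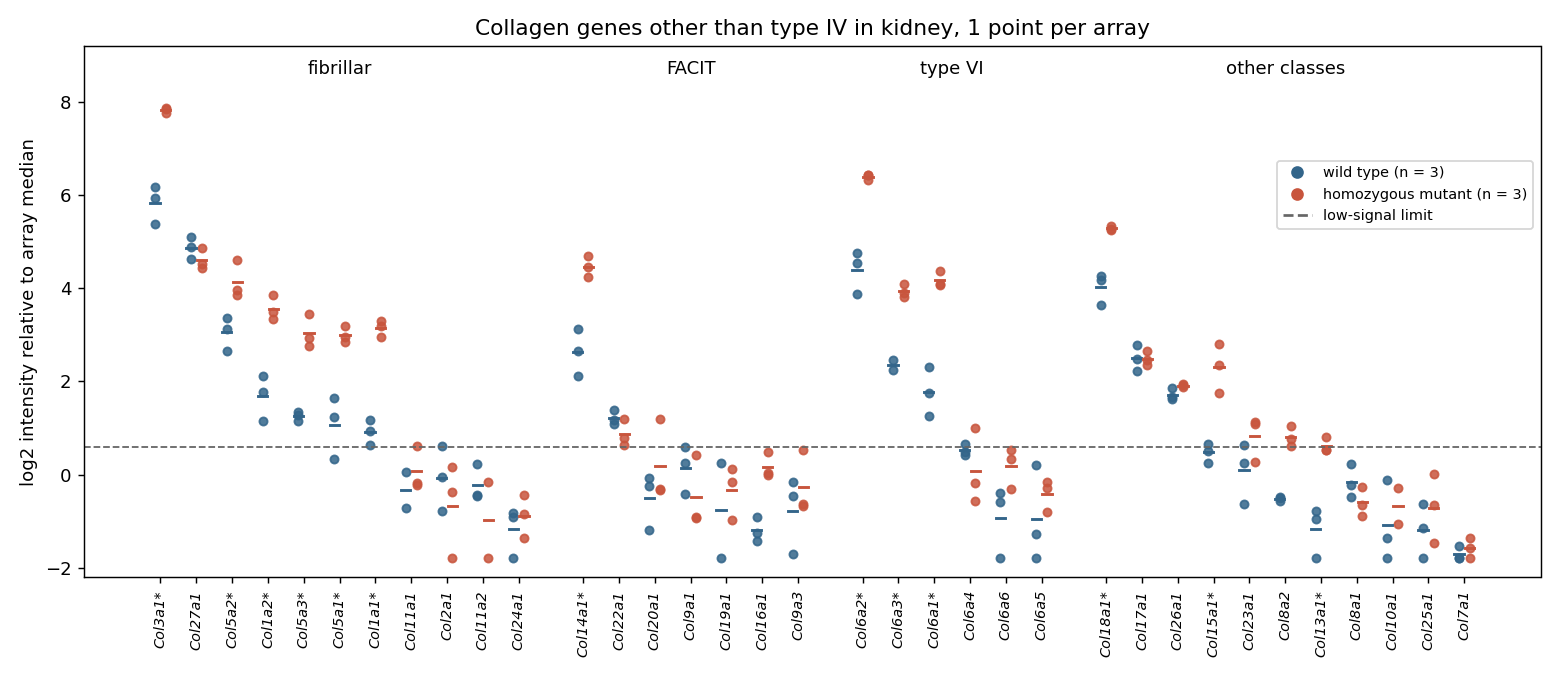
Log2 intensity relative to the array median (vertical axis) of the 35 collagen genes (horizontal axis, by class and in falling order of their mean), with 1 point per array, short bars for the mean of each genotype and a dashed line at the low-signal limit of 0.60 log2. An asterisk marks the 13 genes that passed the test; their wild-type and mutant points do not overlap.

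Levels are intensities divided by the array's own median, and 1.51 times that median, or 0.60 in log2, served as a low-signal limit, set from the spread of the dimmest probes. A genotype's mean is the mean of its log2 values. Levels of different genes come from different probes, so a comparison or sum of them describes intensities and not transcript amounts. Of the 13 risen genes, 11 had means above the limit in both genotypes, and Col13a1 and Col15a1 in mutants only. Col17a1, Col22a1, Col26a1 and Col27a1 had means above the limit in both genotypes and did not pass. Col7a1, Col10a1, Col24a1 and Col25a1 fell under the filter that removed the dimmest 25% of probes. That filter used the mean over both genotypes, so a gene dim in wild type could enter through its mutant level. Col13a1, Col16a1 and Col6a5 did so: their wild-type means of -1.17, -1.19 and -0.95 log2 lay below the overall mean of the filtered-out Col10a1 (-0.92). Wild-type and mutant arrays did not overlap, with mutants higher, in 16 of the 27 tested members that had a value on every array, against 17.8% of all such genes. These 16 included 4 that did not pass the test (Col6a6, Col8a2, Col16a1, Col26a1). Col13a1 and Col16a1 were among the 16 and among the 15 higher at an unadjusted limma p under 0.05. They were admitted by the group in which they were higher, so both counts lean on the filter.

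Among fibrillar chains 6 of 10 tested genes rose and 0 fell, beside 5.67% and 1.59% of all genes tested. Col1a1, the major chain of type I collagen, was at 1.57, 2.25 and 1.91 times the array median on the wild-type arrays and at 9.85, 9.15 and 7.73 on the mutant arrays. All mutant animals lay above all wild-type animals, and the fitted difference was 2.23 ± 0.21 log2 units, or 4.70-fold (adjusted p = 2.55e-05). Its partner Col1a2 was at 2.21, 3.44 and 4.34 times the median in wild type and at 11.3, 10.1 and 14.4 in mutants. The groups were apart, and the difference was 1.88 ± 0.24 (adjusted p = 0.000267).

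Col3a1, the chain of type III collagen that forms fine reticular fibres with type I, was at 41.4, 72.2 and 61.6 times the array median in wild type and at 229, 218 and 232 in mutants. The mutant arrays were close together, with an SD of 0.047 log2 against 0.41 in wild type, and the difference was 1.99 ± 0.19 (adjusted p = 2.97e-05). Type V collagen regulates the diameter of type I fibres, and its 3 chains rose too. Col5a1 was at 1.26, 3.12 and 2.35 times the median in wild type, where replicate 1 lay below the low-signal limit, and at 9.15, 7.71 and 7.23 in mutants, a difference of 1.93 ± 0.29 (adjusted p = 0.00108). Col5a3 rose by 1.79 ± 0.21 and Col5a2 by 1.09 ± 0.21, the smallest rise of the 13. Whether Col5a2 rose less than its chromosomal neighbour Col3a1 was not tested.

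The fibrillar chains of cartilage did not pass. Col2a1, the main cartilage collagen, and Col11a1 and Col11a2, its partners of type XI, differed by -0.60 ± 0.59, 0.40 ± 0.54 and -0.75 ± 0.63, and their means lay below the low-signal limit in both genotypes. Col11a1 and Col11a2 each lacked 1 array and were fitted on the other 5. The cartilage markers Acan, Comp, Matn1, Matn3 and Hapln1 were also dim, all 5 under the limit in both genotype means, and 0 of the 3 tested passed. Col27a1, a fibrillar collagen of cartilage and growth plates, was well above the limit, at 24.6, 34.5 and 29.6 times the array median in wild type and at 23.0, 29.3 and 21.5 in mutants. The groups overlapped, and the 95% confidence interval of its difference ran from -0.61 to 0.08 log2 units, which lies below the lower bound of Col1a1 at 1.77. A second Col27a1 probe, also above the limit, differed by -0.25 ± 0.25.

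Promoter sequence is shown for a few members that rose together, to let their starts be compared. RefSeq (GRCm38.p6) gave an entry for 28 of the 35 members, 10 of them among the 13 that rose. Windows from 250 bases before to 50 after the start were searched on both strands for the letters CCAAT of the CCAAT box, the letters TATAA of the TATA box and the letters GGGCGG of the GC box. CCAAT was found in 3 of those 10 genes, in 7 of the 18 other members with an entry and in 37.4% of all 32851 entries. TATAA was found in 2, 4 and 24.9%, and GGGCGG in 5, 12 and 35.7%, in the same order. The 130 bases before the start follow 5′ to 3′ with matches in capitals. In Col3a1 the capitals cover overlapping TATAA matches of both strands.
Col1a2, chr6:4505488-4505617, plus strand: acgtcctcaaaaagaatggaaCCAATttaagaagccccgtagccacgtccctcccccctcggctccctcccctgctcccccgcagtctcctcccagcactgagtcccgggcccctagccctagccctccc
Col3a1, chr1:45311408-45311537, plus strand: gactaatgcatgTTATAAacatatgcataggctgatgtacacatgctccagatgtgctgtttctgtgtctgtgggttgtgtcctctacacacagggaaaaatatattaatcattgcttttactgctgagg
Col5a1, chr2:27886295-27886424, plus strand: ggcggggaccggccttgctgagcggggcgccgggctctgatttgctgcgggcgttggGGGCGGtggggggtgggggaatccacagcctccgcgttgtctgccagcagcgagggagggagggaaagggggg
Col6a1, chr10:76726045-76726174, minus strand: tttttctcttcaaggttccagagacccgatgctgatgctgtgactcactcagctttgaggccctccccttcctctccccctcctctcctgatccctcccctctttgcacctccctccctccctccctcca
Col1a2 held a CCAAT match that began 109 bases before the start, Col3a1 a TATAA match at 117 and Col5a1 a GGGCGG match at 73, whereas Col6a1 held none of these letters in the stretch shown. These matches describe letters and were not tested against the differences.

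In FACIT collagens 1 of 7 tested genes rose and 0 fell, beside 5.67% and 1.59% of all genes tested. Col14a1, which binds fibril surfaces and is typical of fibroblasts, was at 4.32, 8.67 and 6.32 times the array median in wild type and at 26.0, 21.9 and 18.9 in mutants. The groups were apart, and the difference was 1.84 ± 0.22 log2 units (adjusted p = 0.000165). A second Col14a1 probe lay below the low-signal limit in both genotypes and was not tested. Col16a1, found in many connective tissues, was at 0.532, 0.420 and 0.374 times the median in wild type and at 1.02, 0.997 and 1.40 in mutants. Its groups did not overlap, but all 6 arrays lay below the limit and the difference of 1.36 ± 0.48 did not pass (adjusted p = 0.142). Col22a1, a collagen of tissue junctions, lay above the limit on all arrays and differed by -0.35 ± 0.30 with overlapping groups. Col9a1, Col9a3, Col19a1 and Col20a1 lay below the limit in both genotype means, with differences between -0.62 and 0.69. Col19a1 was fitted on 5 arrays.

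Of 6 type VI genes 3 rose and 0 fell, beside 5.67% and 1.59% of all genes tested. Col6a1, Col6a2 and Col6a3, which build the common heterotrimer, all rose. Col6a1 was at 2.41, 4.94 and 3.39 times the array median in wild type and at 16.8, 20.7 and 17.2 in mutants, a 5.29-fold difference (2.40 ± 0.22 log2 units, adjusted p = 2.13e-05). Its neighbour Col6a2 was at 14.7, 23.2 and 27.0 times the median in wild type and at 80.3, 85.9 and 86.1 in mutants. This came to 2.00 ± 0.19 log2 units (adjusted p = 2.37e-05), with all mutant arrays above all wild-type arrays. Col6a3 had no value on wild-type replicate 2 and was at 4.76 and 5.50 on the other wild-type arrays, against 14.1, 17.1 and 14.9 in mutants. Its difference was 1.58 ± 0.17, fitted without the missing array. Col6a4, Col6a5 and Col6a6, the alternatives to Col6a3 in some trimers, had means below the low-signal limit in both genotypes and differed by -0.44 ± 0.46, 0.54 ± 0.59 and 1.11 ± 0.53.

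Other classes contributed 3 of 8 tested genes, where 5.67% of all genes tested were higher. Col18a1, a heparan sulphate-bearing collagen of basement membranes and the source of endostatin, was at 12.6, 18.0 and 19.1 times the array median in wild type and at 40.1, 38.5 and 38.3 in mutants. The mutant arrays again lay close together, and the difference was 1.26 ± 0.16 log2 units (adjusted p = 0.000287). Col15a1, its relative in the multiplexin family, was at 1.42, 1.20 and 1.59 in wild type, with a mean below the low-signal limit, and at 6.96, 5.08 and 3.39 in mutants. Its fitted difference was 1.83 ± 0.30 log2 units (adjusted p = 0.00223), with a 95% interval from 1.18 to 2.47. Its mutant mean was 3.26 times the limit. The groups did not overlap in either multiplexin.

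Col13a1, a transmembrane collagen of cell contacts, was at 0.520, 0.585 and 0.116 times the array median in wild type and at 1.44, 1.74 and 1.45 in mutants, so that 1 of 6 arrays exceeded the low-signal limit. It rose in the fit (1.79 ± 0.48, adjusted p = 0.0438), but its mutant mean was only 1.02 times the limit. The call was lost in 5 of the 6 fits that left out 1 array. In those fits the adjusted p was 0.0557 without wild-type replicate 1, 0.114 without wild-type replicate 3, and 0.116, 0.182 and 0.114 without mutant replicates 1, 2 and 3. The call was also lost with no filter on dim probes (adjusted p = 0.0691), no floor (0.0841) and no intensity trend (0.0708). Its wild-type mean of -1.17 log2 was dimmer than the overall mean of the filtered-out Col10a1 (-0.92). Col13a1 thus entered the test through its mutant level. Col8a2, a chain of the short-chain network collagen VIII, was at 0.717, 0.709 and 0.678 in wild type and at 1.54, 2.06 and 1.70 in mutants. The groups were apart, yet its difference of 1.32 ± 0.40 did not pass (adjusted p = 0.0796). It did pass with no intensity trend (adjusted p = 0.04996) and when all probes of a gene were averaged before the fit (adjusted p = 0.0444). Its partner Col8a1 lay below the limit on all 6 arrays. The hemidesmosome collagen Col17a1 was at 4.71, 5.63 and 6.92 in wild type and at 6.34, 5.10 and 5.48 in mutants, with overlapping groups and a 95% interval of the difference from -0.43 to 0.40 log2 units. Col26a1 differed by 0.20 ± 0.21 and Col23a1, a transmembrane collagen, by 0.74 ± 0.43.

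**Figure D2:**
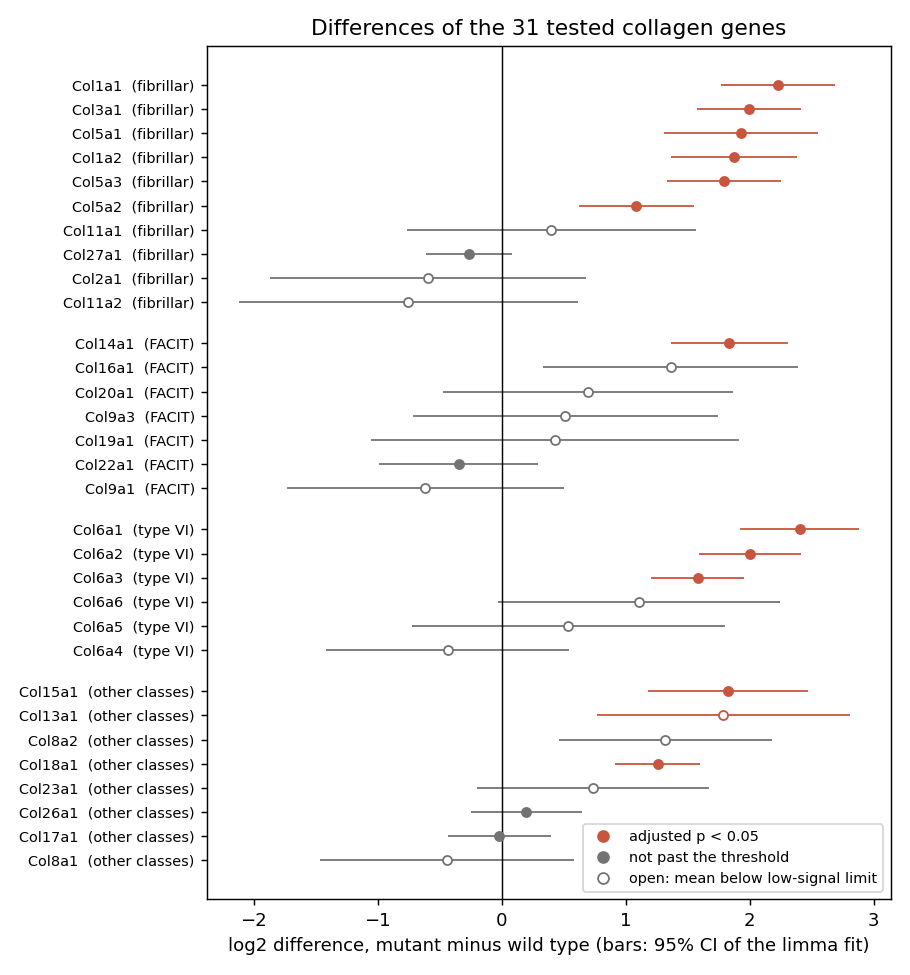
Log2 difference, mutant minus wild type (horizontal axis), of the 31 collagen genes tested (vertical axis, by class), with 95% confidence intervals of the limma fit. Filled points have a mean above the low-signal limit; the 13 genes past the threshold, in red, have intervals above 0, and the open points, which are the dimmer genes, have wide intervals.

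Chains that share a trimer were set against each other within arrays, as the log2 ratio of their intensities, for 5 pairs. Such a ratio has no absolute meaning, since probes differ, but its change between genotypes shows whether the measured intensities moved by unequal amounts. Whether the transcripts did so was not tested. Col6a1 over Col6a3 went from -0.84 ± 0.20 (SD, n = 2) to 0.24 ± 0.032 (SD, n = 3), a change of 1.08 (exact permutation test, two-sided, p = 0.1). Col5a1 over Col5a2 changed by 0.84, from -1.98 ± 0.44 to -1.14 ± 0.23 (SD, n = 3 each), with Col5a1 below the low-signal limit on wild-type replicate 1. In both pairs the arrays of the genotypes did not overlap. Col1a1 over Col1a2 and Col6a1 over Col6a2 changed by 0.35 and 0.40, with overlapping arrays and p = 0.3 in the same exact test. With so few arrays the test cannot go below 0.1, and after Benjamini-Hochberg adjustment over the 5 pairs the p-values were 0.167 and 0.3. The fifth pair was Col8a1 over Col8a2, for which no ratio is given because Col8a1 lay below the limit on all 6 arrays and Col8a2 on all wild-type arrays.

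**Figure D3:**
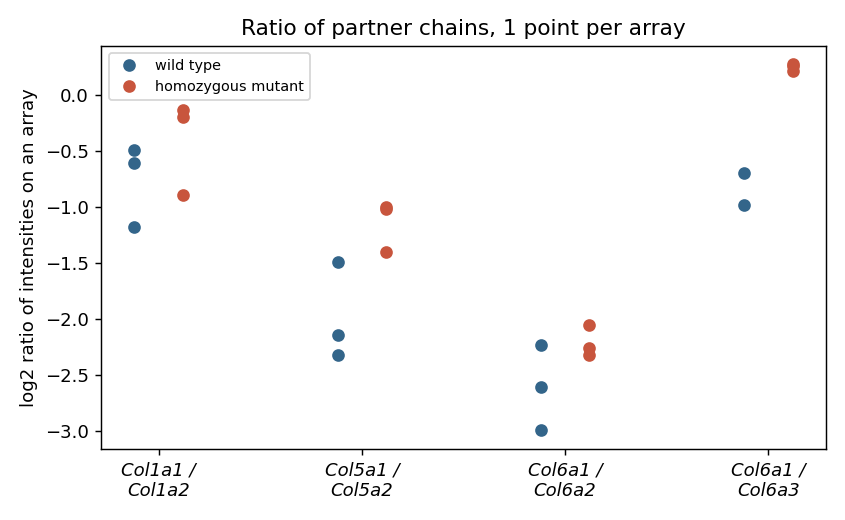
Log2 ratio of the intensities of 2 partner chains on the same array (vertical axis) for 4 pairs (horizontal axis), with 1 point per array. The points of both genotypes separate for Col5a1 over Col5a2 and Col6a1 over Col6a3 and overlap for Col1a1 over Col1a2 and Col6a1 over Col6a2; Col6a1 over Col6a3 has 2 wild-type points.

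Type IV collagen, the sheet-forming collagen of basement membranes, did not move one way. Of its 6 genes Col4a1 and Col4a2, the ubiquitous chains, rose by 0.87 ± 0.20 and 1.07 ± 0.17 log2 units, and Col4a3, of the mature glomerular basement membrane, fell by 1.02 ± 0.24. The median difference of the 6 was 0.27. Of all genes tested, 5.67% were higher and 1.59% lower. Col4a1 did not pass without wild-type replicate 1 (adjusted p = 0.0853) or mutant replicate 2 (0.117), nor did Col4a3 without wild-type replicate 1 (0.0804) or mutant replicate 3 (0.0908). Whether the shift of type IV differed from that of the other collagens was not tested.

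Proteins that build collagen moved in part. Of 35 listed genes for modification, folding, export, trimming and cross-linking, 31 were measured, 29 tested, 9 higher and 0 lower, with a median difference of 0.33. Over all genes tested 5.67% were higher and 1.59% lower. The cross-linking oxidase Loxl1 rose by 2.24 ± 0.15 log2 units, the prolyl 3-hydroxylase family member P3h3 by 1.18 ± 0.16, the matricellular collagen chaperone Sparc by 1.09 ± 0.17 and Bmp1, which removes the C-terminal propeptide, by 1.12 ± 0.19. The others were Pcolce, Serpinh1, Loxl3, Lox and Loxl2. Lox and Loxl2 had wild-type means below the low-signal limit, and their mutant means were 2.60 and 1.20 times the limit. The wild-type mean of Loxl2 (-1.09 log2) was dimmer than the overall mean of the filtered-out Col10a1 (-0.92). Loxl2, counted among the 9, thus entered the test through its mutant level. Loxl2 did not pass without wild-type replicate 3 (adjusted p = 0.0666), without mutant replicates 1, 2 or 3 (0.101, 0.0784 and 0.105) or with no floor (0.0874), and Lox did not without mutant replicate 1 (0.0610) or 2 (0.0778). General enzymes of the endoplasmic reticulum that also serve collagen differed little and did not pass: P4hb, the beta subunit of prolyl 4-hydroxylase, by -0.15 ± 0.14, and the cyclophilin Ppib by 0.11 ± 0.14. With no intensity trend 1 of the 29, Loxl1, passed.

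Of 22 listed collagen receptors and breakdown genes 21 were measured, 14 tested, 5 higher and 0 lower, with a median difference of 0.44. Over all genes tested 5.67% were higher and 1.59% lower. The membrane-bound collagenase Mmp14 rose by 1.93 ± 0.17 log2 units, the gelatinase Mmp2 by 1.83 ± 0.22 and the inhibitor Timp2 by 1.58 ± 0.17. Timp1, another inhibitor of metalloproteinases, and the collagen-degrading cathepsin Ctsk also rose, from wild-type means below the low-signal limit. Their mutant means were 9.80 and 1.25 times the limit. The wild-type mean of Ctsk (-1.10 log2) was dimmer than the overall mean of the filtered-out Col10a1 (-0.92). Ctsk, counted among the 5, thus entered the test through its mutant level. Ctsk did not pass without wild-type replicate 3 (adjusted p = 0.0594), without mutant replicates 1, 2 or 3 (0.120, 0.0892 and 0.0543), with no floor (0.149) or with no intensity trend (0.0742). None of the 5 is a receptor. Among receptors the integrin chains Itga1, Itgb1 and Itga11 differed by -0.63 ± 0.20, 0.57 ± 0.19 and -0.12 ± 0.35, none past the threshold. Nor did the discoidin receptor Ddr1 pass, with 0.21 ± 0.16. Ddr2, Itga2, Itga10, Gp6 and Mrc2 had means below the low-signal limit in both genotypes. Of these, only Ddr2 was tested, and it did not pass, so the other receptors named could not have been called. Averaging all probes of a gene gave Timp2 an adjusted p of 0.425. Timp3, also an inhibitor on the list, went the other way, by -0.58 ± 0.17. Its mutant arrays all lay below its wild-type arrays, but it did not pass (adjusted p = 0.0718).

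**Figure D4:**
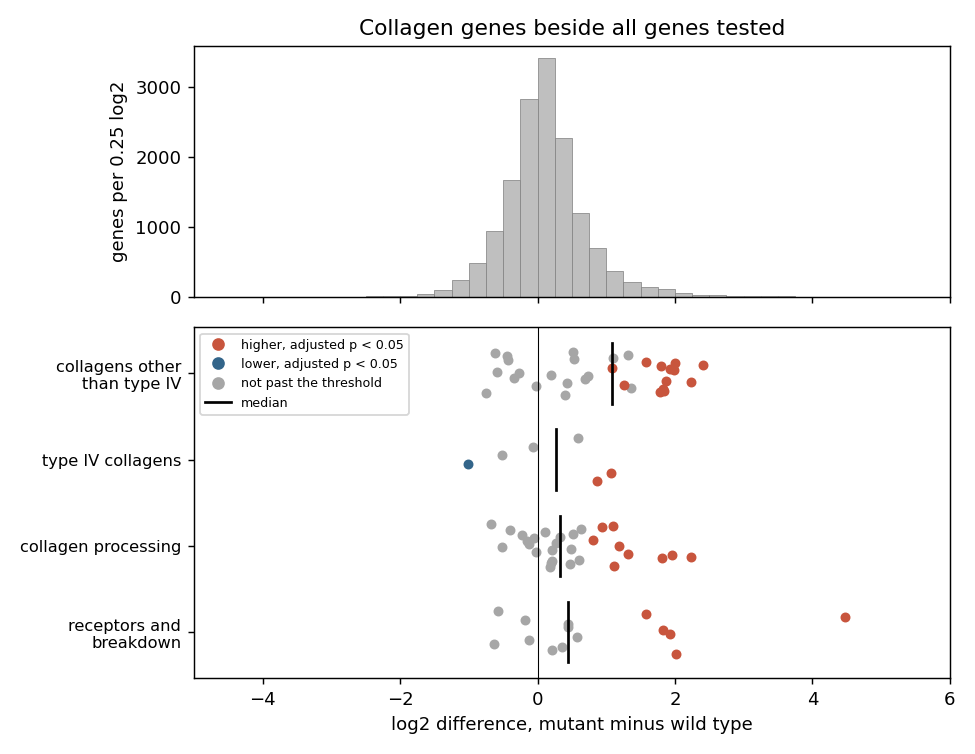
Upper panel: number of genes (vertical axis) per 0.25 log2 bin of difference, mutant minus wild type, for the 14817 genes tested. Lower panel: 1 point per tested gene of 4 groups on the same horizontal axis, with black lines at the group medians; the median of collagens other than type IV is at 1.09, those of type IV, processing and receptor and breakdown genes at 0.27, 0.33 and 0.44.

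Markers of some cell types rose along with the collagens. Of all genes tested, 5.67% were higher and 1.59% lower. Of 6 fibroblast and pericyte markers 4 rose (Pdgfra, Pdgfrb, Dcn, Vim), and their summed intensity was between 50.3 and 66.4 times the array median in wild type and between 149 and 209 in mutants. The log2 mean of Thy1 lay below the low-signal limit in both genotypes, with 1 mutant array above it, and that of Lum in wild type. All 5 smooth muscle markers rose (summed 50.2 to 66.7 against 115 to 153). So did Cd14 and C1qa of 3 macrophage markers measured (8.99 to 10.4 against 39.5 to 55.0). Adgre1, the other macrophage marker, lay below the limit and differed by -0.82 ± 0.64 without passing, fitted without mutant replicate 3. None of 4 tested endothelial markers passed (39.0 to 41.2 against 41.3 to 54.1), and of 6 kidney epithelial markers Slc34a1 fell (323 to 364 against 263 to 362). Umod made up much of the epithelial sum (190 to 224 against 167 to 263), and Lrp2 differed by -0.55 ± 0.18 without passing. Of the fat markers 0 of 2 tested passed (76.9 to 89.7 against 86.6 to 115), a sum that was mostly Fabp4 (72.3 to 88.4 against 85.5 to 111). The 4 adrenal markers all lay below the limit in both genotype means, with 0 of 2 tested past the threshold. The part of these cells in the collagen differences was not tested, and in whole kidney more cells of a type and more RNA per cell cannot be told apart.

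The share of values above the low-signal limit was 37.5% to 41.7% per array. Replicate 1 of each genotype stood apart in sex-linked genes: Xist was at 4.64 times the array median on wild-type replicate 1 and at 7.98 on mutant replicate 1, against 0.556 to 0.862 on the other 4 arrays, while the Y-linked Eif2s3y was at 0.0435 and 0.162 against 8.05 to 11.0. By these transcripts replicate 1 of each genotype read as female and replicates 2 and 3 as male. Sex was thus mixed within the genotypes and balanced between them. With replicates 2 and 3 of each genotype only, 11 collagen genes rose. Col6a3 then could not be tested, having 1 wild-type value left, and Col13a1 did not pass. Wild-type replicate 1 was also the lowest wild-type array for 10 of the 12 risen collagens with values on all arrays, and for 63.0% of all genes above the limit. Without it 11 collagen genes rose, again without Col6a3 and Col13a1. The risen collagens spread more in wild type, with a median SD of 0.41 log2 against 0.18 in mutants, than genes above the limit at large, with 0.21 and 0.19. That spread was not tested.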

How the data were processed

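The authors deposited 1 linear intensity for each probe on each array, with array medians between 0.994 and 0.997 and 2.66% to 3.46% of values at or below 0. How they subtracted background and scaled is not stated in the labels used here. Labelling followed the CodeLink manufacturer's method, per the labels' protocols. Each intensity was divided by its array's median, nonpositive values counted as missing, those under the 10th percentile of positive values (0.290) were raised to it, and log2 was taken. Probes with values on at least 2 arrays per genotype numbered 34445, and 25834 remained after the dimmest 25% were removed. The test was limma 3.58.1 under R 4.3.3 (lmFit, eBayes with intensity trend, two-sided, Benjamini-Hochberg over all probes tested). The code was tested on simulated data. The low-signal limit is the mode of the linear values (0.524) plus 3 times the spread below it (0.330). For genes past the threshold whose wild-type mean lay below it, the mutant mean is given as a multiple of the limit. That multiple is not a lower bound of the fold difference. Each array is a different animal, per the series' design text. The members, lists and limit were chosen with earlier results of these data known. Genes given array by array were the markers of the family and, per class, up to 4 members past the threshold; list genes were the 4 with the smallest p per direction, and others named were chosen after their values were seen. Probe symbols came from the platform annotation, and all 35 members matched RefSeq. Alternatives were other scalings, floors, filters, variance models, a replicate block, probe averaging and leaving out arrays.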

Additional observations from a re-analysis of the deposited data

How the results depend on the processing

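The number of collagen genes higher in mutant kidney, 13, was 11 to 13 in each alternative except no intensity trend, where it was 6, made up of 5 of the 13 and Col8a2; genes lower numbered 0 in all 17 alternatives. With no intensity trend, fibrillar genes higher numbered 3, FACIT genes 0, genes of other classes 1, processing genes 1 and type IV genes 0. Col1a2 and Col6a3 then had an adjusted p of 0.0624 and Col18a1 of 0.0742. After averaging all probes of a gene, FACIT genes higher numbered 0, because the dim second Col14a1 probe entered its mean, Col5a1 had an adjusted p of 0.208, and Col8a2 passed. Type IV genes higher numbered 1 with replicates 2 and 3 only. Leaving out single arrays gave 11 to 13 collagen genes, 7 to 10 processing genes (7 without mutant replicate 1 or 2), 4 to 5 receptor and breakdown genes and 1 to 2 type IV genes. Over all settings the median difference ran from 0.69 to 1.29 for collagens, 0.29 to 0.51 for processing, 0.30 to 0.66 for receptor and breakdown and 0.11 to 0.38 for type IV genes. The direction of no called gene turned, and 5 of the 13 passed in all alternatives that tested them. Same-numbered arrays of both genotypes had deviations from their group means that correlated across genes at 0.17, 0.082 and 0.18. Arrays of different numbers correlated at -0.17 to 0.010, so each array correlated best with its own number. Because 1 same-numbered pair lay under 0.1, the main fit did not pair animals by number. That rule cannot decide whether the numbers pair animals. A replicate block left 13 collagen genes higher. Quantile normalization and cyclic loess also gave 13. Over all probes, no intensity trend gave 179 higher and 12 lower, and the replicate block 1367 and 489. Leaving out single arrays gave 588 (without mutant replicate 2) to 1026 higher and 154 (the same) to 325 lower. The number of arrays and the dimness of 19 members limit what could be detected.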

Other observations

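A further probe was present for 11 of the 35 collagen genes, and 10 of these second probes had means below the low-signal limit in both genotypes. Among the risen genes, the second probes of Col5a1 and Col6a2 differed by -0.07 ± 0.52 and 0.49 ± 0.57 log2 units and lay below the limit, so that they give no check of the calls. The linear mean of the arrays would have chosen the same probe in all 11 genes.

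Among mutant arrays, replicate 3 was the lowest for 7 of the 12 risen collagens with values on all arrays and replicate 1 the highest for 6, against 36.9% and 35.9% of all genes above the limit.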
